A study of Homo sapiens and Mus musculus with 12 samples.

Results

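The Notch ligand and fringe genes are 10 genes that make or modify the signal read by Notch receptors: DLL1, DLL3, DLL4, JAG1, JAG2, DNER, LFNG, MFNG, RFNG and POFUT1. They were chosen by symbol, and their mouse counterparts by gene description. All 10 were found among 60675 human and 47729 mouse gene identifiers, and all 10 passed the filter on low counts in both species. Their RNA was followed in 12 libraries of cortical organoids, which are aggregates of stem cells grown toward embryonic forebrain tissue. The human KO libraries (n = 3) came from a NOTCH2NL knockout of H9, an established human embryonic stem cell line, made with CRISPR/Cas9. The human WT libraries (n = 3) came from H9 control cells. The descriptions name the KO line H9_KO_E5del42 and the control line H9_WT_E2del19, and what these codes mean is not stated. Both were harvested at week 4, on day 28, after growth with SB431542, Dorsomorphin, IWR-1-Endo and, until day 24, Cyclopamine, as pools of 5 to 10 organoids. The mouse N2NL libraries (n = 3) came from 46C embryonic stem cells stably expressing the NOTCH2NL-Sh_T197I cDNA, and the mouse EV libraries (n = 3) from 46C cells with the empty vector control. They were harvested on day 6 as pools of 16 organoids. NOTCH2NL is a human-specific set of partial copies of the receptor gene NOTCH2, and the comparisons ask how gene expression in organoids changes when it is lost or added.

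All KO libraries carry 1 of these codes and all WT libraries the other, and the same division holds for N2NL and EV, so the effect of the gene and that of the line cannot be told apart. Whether the pools of a group were separate cultures is not stated, so p-values measure the spread between pools, which may be technical. The row annotated as NOTCH2NL held 0, 0 and 0 counts in KO libraries 1 to 3, against 4, 5 and 3 counts in WT libraries 1 to 3. A count of 0 allows up to 0.195 CPM (counts scaled to the library total) in these libraries, so this row carries little depth in either group. In the authors' deposited table for mouse, NOTCH2NL had normalized values of 801, 709 and 740 in N2NL and of 0, 0 and 0 in EV. Total counts ran from 15381409 to 16306480 in KO, from 15514521 to 16382938 in WT, from 16781742 to 20381366 in N2NL and from 18436984 to 20960391 in EV. Across all genes, 932 of 16956 (5.5%) differed between KO and WT, with 391 higher and 541 lower in KO at an adjusted p under 0.05 in edgeR's quasi-likelihood test. Scaling by library size alone moved that split to 454 higher and 455 lower. Only 2 of 16682 genes (0.012%) differed between N2NL and EV, both higher in N2NL: Klf2 (0.66 ± 0.09 on the log2 scale) and the gene described as neuronatin (1.37 ± 0.14). These genes are named because their count was small, after their values were seen. In the same mouse test 1242 genes (7.45%) had an unadjusted p under 0.05, and DESeq2 called 30 of 8636 genes (0.347%).

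Notch receptors are activated by ligands on neighbouring cells. DLL1, DLL4, JAG1 and JAG2 encode membrane ligands that can activate the receptor, DLL3 encodes a divergent Delta protein that acts mainly inside the cell that makes it, and DNER encodes a neuronal membrane protein proposed as a noncanonical ligand. POFUT1 adds O-fucose to the EGF repeats of Notch, and the fringe enzymes LFNG, MFNG and RFNG extend that fucose, which changes how well the receptor responds to Delta and Jagged ligands. In the developing cortex, newly born neurons and committed progenitors carry Delta ligands, and signalling to their neighbours helps to keep those cells as progenitors.

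The genes lie on different chromosomes except for JAG1 and POFUT1, which share chromosome 20. In GRCh38 with GENCODE 29, all 10 are protein-coding. DLL1 lies at chr6:170282206-170306565, DLL3 at chr19:39498895-39508481, DLL4 at chr15:40929333-40939073, JAG1 at chr20:10637684-10673999 and JAG2 at chr14:105140981-105168824. DNER lies at chr2:229357629-229714558, LFNG at chr7:2512529-2529177, MFNG at chr22:37469063-37486401, RFNG at chr17:82047902-82051831 and POFUT1 at chr20:32207880-32238667. RFNG shares 835 exonic bases with GPS1 on the opposite strand, and GPS1 held 2252 to 2648 counts per human library. The labels' protocols name no strand setting for the counting, so how reads on these shared bases were assigned is not known. The RFNG level may be too high or too low for that reason. JAG2 shares 469 exonic bases with AL512356.1 on its own strand, a transcript listed at 0 counts in all 6 human libraries.

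Of the 10 genes, 6 had an entry in the RefSeq promoter table (GRCh38.p14), and LFNG had entries at 2 start sites. The bases just upstream of JAG2 and DLL4, the ligand genes lower in every KO library, are shown with those of JAG1, the nearest relative of JAG2, whose groups overlapped. They are written 5′ to 3′ on the strand of the gene, and capitals mark each GC box (GGGCGG, or CCGCCC on the other strand). The windows are chr14:105168825-105169026 on the minus strand, chr15:40929090-40929332 on the plus strand and chr20:10674000-10674249 on the minus strand.
JAG2: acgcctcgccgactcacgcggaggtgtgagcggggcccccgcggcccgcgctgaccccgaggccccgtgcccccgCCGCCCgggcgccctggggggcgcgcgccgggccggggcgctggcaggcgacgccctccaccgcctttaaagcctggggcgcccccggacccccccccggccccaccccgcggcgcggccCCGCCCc
DLL4: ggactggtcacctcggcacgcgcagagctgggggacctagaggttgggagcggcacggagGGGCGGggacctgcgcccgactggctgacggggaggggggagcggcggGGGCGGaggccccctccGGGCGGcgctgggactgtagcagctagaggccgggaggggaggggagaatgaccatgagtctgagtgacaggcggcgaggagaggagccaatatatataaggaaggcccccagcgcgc
JAG1: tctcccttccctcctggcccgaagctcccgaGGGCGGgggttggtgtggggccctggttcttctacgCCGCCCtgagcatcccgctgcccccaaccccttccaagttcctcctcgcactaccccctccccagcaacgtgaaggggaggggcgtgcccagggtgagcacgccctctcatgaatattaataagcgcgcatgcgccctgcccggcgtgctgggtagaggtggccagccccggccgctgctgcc
A GC box was present in 6 of the 7 windows of these genes, against 42.6% of 35116 RefSeq windows of 250 bases, and this motif was added after the letters had been seen. The JAG2 window was 86.1% G or C, that of DLL4 70.8% and that of JAG1 68.4%, against a median of 58.0% over all windows. The RBPJ core TGGGAA, the E-boxes CAGCTG and CAGATG and the N-box CACNAG, searched on both strands, were absent from these 3 windows. Over all 7 windows, the RBPJ core, the N-box and the CAGATG E-box each occurred in 1, at LFNG, and the other E-box in 0. Of the 35116 windows, 7321 (20.8%) held TGGGAA, 4911 held CAGCTG, 4267 (12.2%) held CAGATG and 11251 held CACNAG.

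Between genes, levels were compared per kb of exon, in human only. In KO organoids DNER was the most abundant of the 10, at 52.0 ± 4.45 CPM per kb (SD, n = 3), and in WT organoids too, at 58.4 ± 12.5 CPM per kb. DLL1 came next at 39.3 ± 6.20 CPM per kb in KO and 37.7 ± 3.66 in WT, followed by DLL3 at 25.9 ± 8.85 in KO and 24.6 ± 8.30 in WT. The ranges of DLL1 and DLL3 overlapped in KO, and those of DLL3 and RFNG overlapped in WT. RFNG and LFNG stood in the middle, with RFNG at 16.2 ± 0.596 CPM per kb in KO and 15.2 ± 1.83 in WT, and LFNG at 12.1 ± 1.54 in KO and 12.1 ± 0.302 in WT. POFUT1, JAG1 and MFNG lay between 4.15 and 6.27 CPM per kb on average, and the neighbours among them did not separate in either group. JAG2 averaged 1.32 ± 0.154 CPM per kb in KO and 2.13 ± 0.315 in WT, and DLL4 0.389 ± 0.0305 in KO and 0.602 ± 0.100 in WT, which made them the lowest in both groups.

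**Figure D1:**
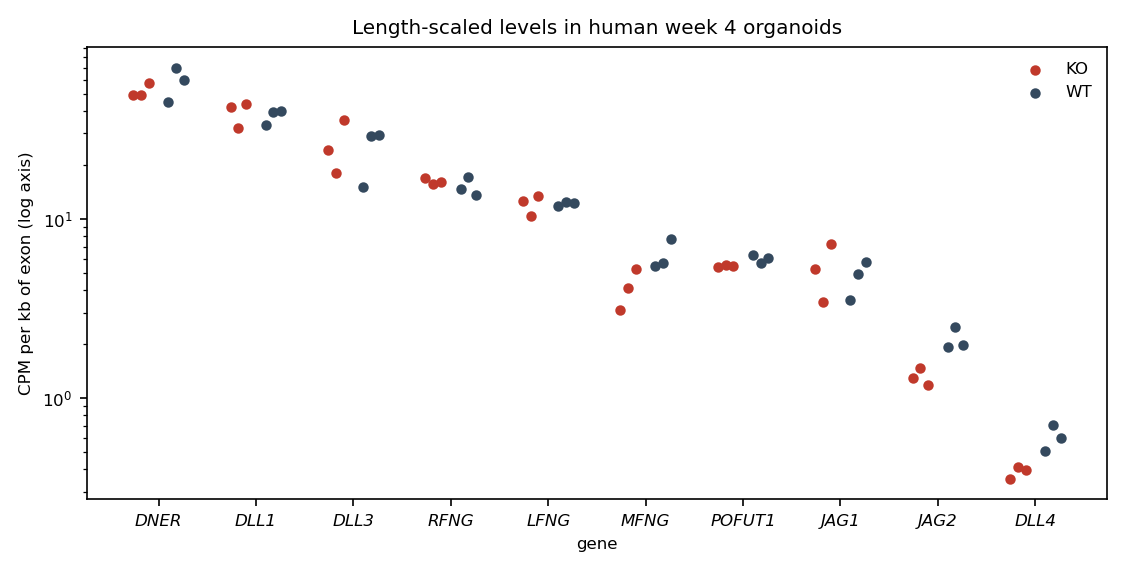
Length-scaled level (CPM per kb of exon, log axis) of each gene in the 3 KO and the 3 WT libraries, with genes ordered by their mean in WT. DNER, DLL1 and DLL3 lie at the top and JAG2 and DLL4 at the bottom in both groups.

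Counted per kb, the 5 DLL and JAG genes were dominated by DLL1 and DLL3, while DLL4 held the smallest share. DLL1 made up 55.0% ± 4.68 of the level summed over the 5 genes in KO and 54.8% ± 5.82 in WT (SD, n = 3 each). DLL3 made up 35.3% ± 4.42 in KO and 34.5% ± 6.00 in WT. JAG1 made up 7.21% ± 1.01 in KO and 6.75% ± 0.564 in WT. JAG2 held 1.92% ± 0.676 in KO and 3.11% ± 0.512 in WT, and DLL4 0.561% ± 0.160 in KO and 0.870% ± 0.0878 in WT. Of the 3 fringe genes, RFNG held 50.0% ± 3.26 in KO and 45.1% ± 4.15 in WT, LFNG 37.3% ± 2.43 in KO and 36.2% ± 0.931 in WT, and MFNG 12.7% ± 2.91 in KO and 18.7% ± 3.67 in WT.

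In the human comparison 1 of the 10 genes passed the test, JAG2, which fell in KO; across all genes tested 5.5% passed, 2.31% as higher and 3.19% as lower in KO. JAG2 encodes a Jagged ligand. Its level was 8.26, 9.47 and 7.53 CPM in KO libraries 1 to 3, against 12.3, 16.0 and 12.7 CPM in WT libraries 1 to 3. Every KO library lay below every WT library. The log2 fold change was -0.70 ± 0.17 (SE, edgeR quasi-likelihood test, adjusted p = 0.0423), with a 95% interval of -1.08 to -0.32. The call was lost with library size scaling (adjusted p = 0.0564) and when KO 1, KO 2, KO 3, WT 2 or WT 3 was left out, and kept without WT 1, with edgeR adjusted p-values of 0.028 to 0.162 over these 6 fits. DESeq2 also called JAG2 (adjusted p = 0.0175), with 7.13% of 18874 genes called. The authors' deposited table gives JAG2 a log2 fold change of -0.59 with an adjusted p of 0.0163.

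The other Jagged gene, JAG1, had 49.1, 32.03 and 67.1 CPM in KO, against 32.7, 45.6 and 53.6 CPM in WT. Its groups overlapped, and within KO the highest library held 2.09 times the lowest. The log2 fold change was 0.17 ± 0.31 (edgeR adjusted p = 0.795), with an interval of -0.58 to 0.92, so a change of the size seen for JAG2 in the same direction lay outside it while a rise of that size did not. JAG1 turned to -0.11 without KO 3 and to -0.004 without WT 1.

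Among the Delta genes, DLL4, a ligand best known from blood vessels, stood at 1.69, 1.97 and 1.90 CPM in KO, against 2.398, 3.351 and 2.853 CPM in WT. Every KO library was below every WT library. These levels rest on 26 to 31 counts per KO library and 37 to 55 per WT library, and the log2 fold change was -0.63 ± 0.27 (edgeR adjusted p = 0.193). Of the 6 endothelial markers, PECAM1, CDH5, TEK and ERG held at most 3, 4, 6 and 1 counts in any human library. KDR and TIE1 reached 67 and 41 counts, as many as DLL4, with log2 fold changes of 1.27 ± 0.51 (edgeR adjusted p = 0.178) and -1.20 ± 0.55 (edgeR adjusted p = 0.229). Their part in the DLL4 level was not tested. The summed level of the 6 was 3.84 to 5.02 CPM in KO and 1.62 to 4.88 CPM in WT.

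DLL1, the main Delta ligand of the neural tube and cortex, had 136, 104 and 141 CPM in KO, against 108, 128 and 129 CPM in WT. DLL3 had 63.3, 47.3 and 92.9 CPM in KO, against 39.3, 76.4 and 77.4 CPM in WT. Both genes overlapped between the groups and both were lowest in KO 2 and WT 1. The log2 fold change was 0.06 ± 0.12 for DLL1 (edgeR adjusted p = 0.814, interval -0.22 to 0.34). That of DLL3 was 0.08 ± 0.37 (edgeR adjusted p = 0.930, interval -0.85 to 1.00), so the DLL3 data allow much larger changes than those of DLL1. Without KO 3 the values were -0.02 for DLL1 and -0.22 for DLL3, and without WT 1 they were -0.02 and -0.18.

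DNER had 194, 195 and 225 CPM in KO, against 178, 276 and 235 CPM in WT. The groups overlapped, with both the lowest and the highest value in WT, and the log2 fold change was -0.17 ± 0.15 (edgeR adjusted p = 0.552).

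The fringe genes differed in how their libraries lay. MFNG had 9.43, 12.5 and 16.0 CPM in KO, against 16.7, 17.2 and 23.4 CPM in WT, with every KO library below every WT library. Its log2 fold change was -0.60 ± 0.21 (edgeR adjusted p = 0.127), and it passed only where no filter on low counts was used (edgeR adjusted p = 0.00847). LFNG, the fringe gene best known from somite segmentation, had 43.1, 35.6 and 45.7 CPM in KO, against 40.3, 42.3 and 41.8 CPM in WT. The groups had the same mean, 41.5 CPM, and the log2 fold change was 0.00 ± 0.11 with an interval of -0.25 to 0.25. RFNG had 65.1, 60.7 and 61.9 CPM in KO, against 56.8, 66.4 and 52.6 CPM in WT, which overlapped (0.09 ± 0.10, edgeR adjusted p = 0.634). POFUT1, whose fucose the fringes extend, had 34.8, 35.6 and 35.1 CPM in KO, against 40.4, 36.4 and 38.8 CPM in WT. Its KO libraries lay below all WT libraries, with a log2 fold change of -0.13 ± 0.10 (edgeR adjusted p = 0.445).

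**Figure D2:**
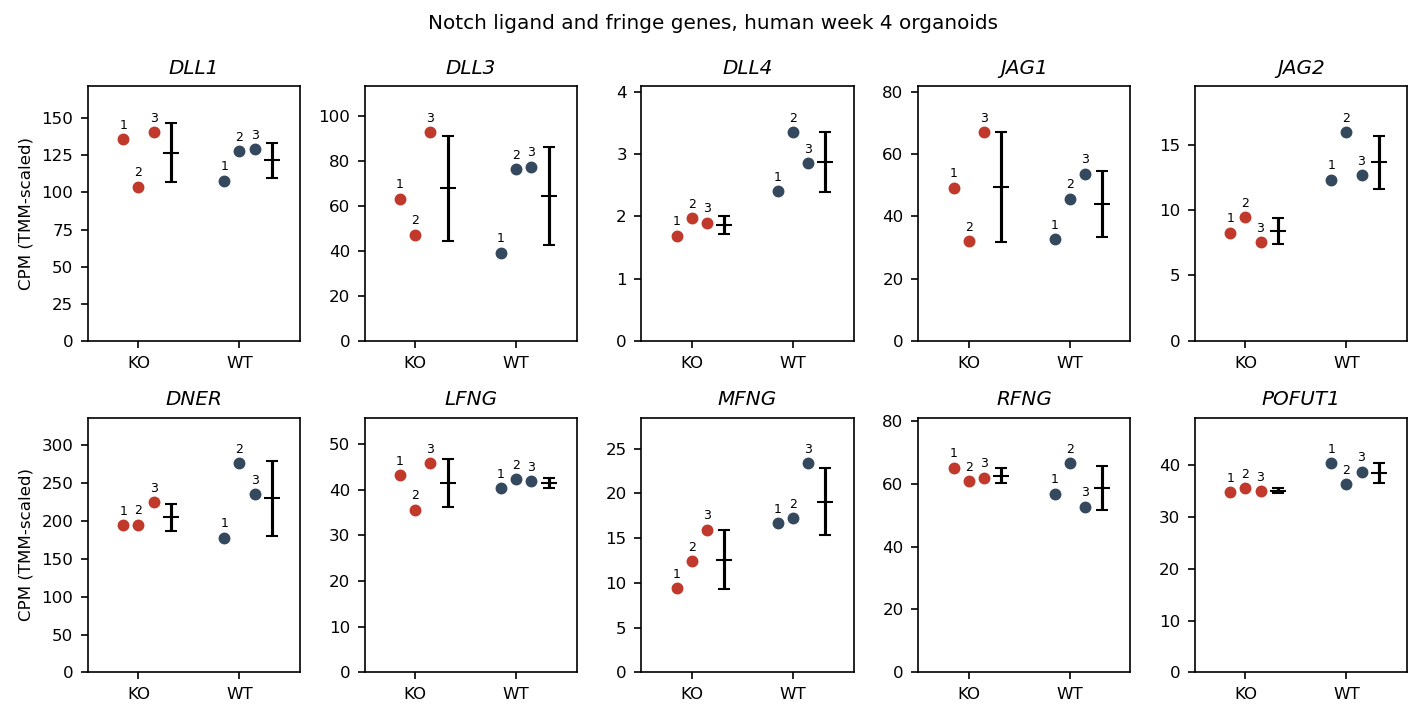
Level (CPM) of each of the 10 genes in human organoids, with numbered points for the 3 KO and 3 WT libraries and a bar for mean ± SD. KO and WT points do not overlap for JAG2, DLL4, MFNG and POFUT1, and only JAG2 passed the test.

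In all, the KO libraries were below the WT libraries for 4 of the 10 genes, above them for 0 and overlapped them for 6; over all genes tested 14.8% were below and 14.1% above, together 28.8%. An unadjusted p under 0.05 was reached by 3 of the 10 (JAG2, MFNG and DLL4), against 22.8% of all genes. The median log2 fold change was -0.07 for the 10 genes and -0.005 for all genes, whose lower and upper quartiles were -0.21 and 0.19. Within groups, KO 2 was lowest among KO libraries for DLL1, DLL3, JAG1, LFNG and RFNG and highest for JAG2, DLL4 and POFUT1. WT 1 was lowest among WT libraries for DLL1, DLL3, JAG1, LFNG, DNER, JAG2, DLL4 and MFNG and highest for POFUT1. For JAG2 and DLL4, KO 2 and WT 1 thus lay at opposite ends of their groups. KO 2 and WT 1 also had the lowest summed level of the 6 neuron markers, with 3169, 2588 and 3777 CPM in KO 1 to 3 and 2663, 3395 and 3333 CPM in WT 1 to 3. The neural progenitor sum was lowest in the same libraries (3043 CPM in KO 2 and 3879 CPM in WT 1), and the telencephalon sum was highest there (732 CPM in KO 2 and 762 CPM in WT 1). In a bulk sample fewer cells of a type and less RNA per cell cannot be told apart, and the part of cell makeup in these values was not tested.

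**Figure D3:**
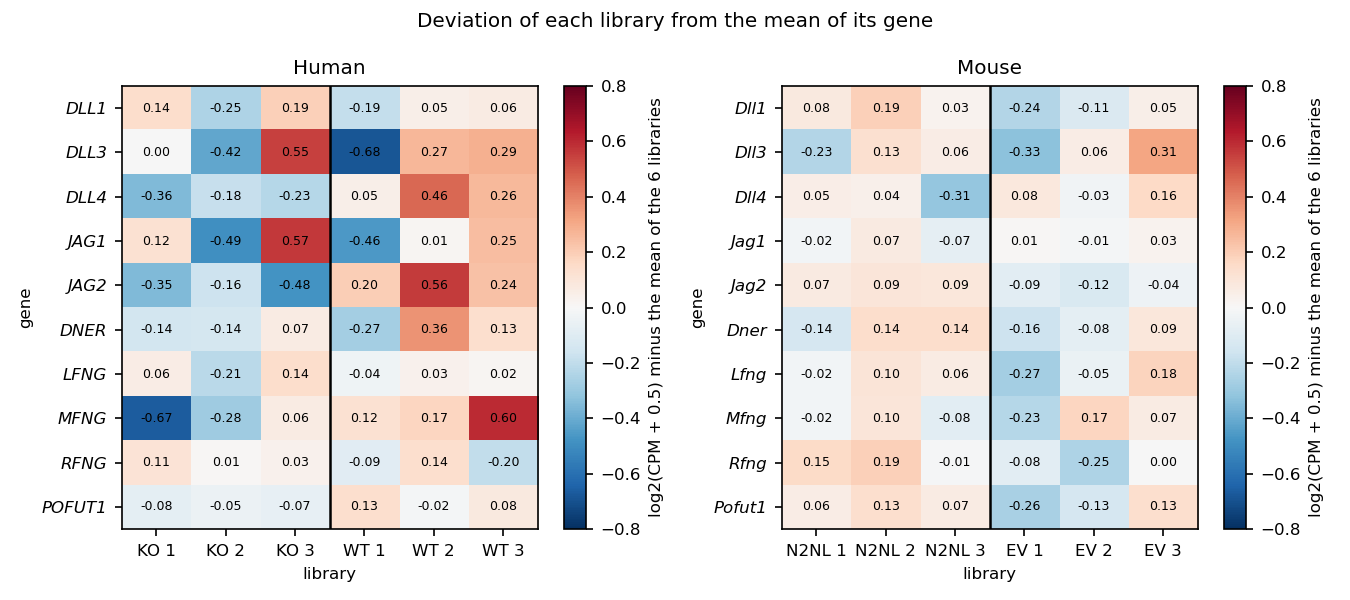
Deviation of each library from the mean of its gene, on the log2(CPM + 0.5) scale, for the 10 human genes (left, KO then WT) and their mouse counterparts (right, N2NL then EV). DLL3 and JAG1 reach 0.55 and 0.57 in KO 3 and -0.68 and -0.46 in WT 1, which is more than any mouse gene departs from its mean. MFNG (-0.67 in KO 1 and 0.60 in WT 3) and JAG2 (-0.48 in KO 3 and 0.56 in WT 2) depart about as far.

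The rest of the pathway, 58 listed human genes of which 56 were tested, had 0 genes higher and 4 lower in KO, against 2.31% higher and 3.19% lower among all genes, with a median log2 fold change of -0.06. Of the 8 tested ligand-like genes, DLK1 fell. DLK1, a Delta-like protein without the domain that activates Notch, had 62.99, 51.98 and 69.86 CPM in KO, against 94.8, 108 and 112 CPM in WT (log2 fold change -0.77 ± 0.12, edgeR adjusted p = 0.00597). Of the 4 receptor genes, NOTCH1 and NOTCH3 fell. NOTCH1 had 184, 178 and 170 CPM in KO, against 266, 212 and 221 CPM in WT (-0.39 ± 0.10, edgeR adjusted p = 0.0456). NOTCH3 had 133, 132 and 122 CPM in KO, against 165, 158 and 166 CPM in WT (-0.34 ± 0.08, edgeR adjusted p = 0.0321). Of the 7 Notch target genes, HES4, a repressor induced by Notch, fell. HES4 had 44.2, 31.8 and 42.8 CPM in KO, against 63.4, 70.8 and 61.9 CPM in WT (-0.72 ± 0.13, edgeR adjusted p = 0.0131). The other 6 targets did not pass, and their groups overlapped. Their log2 fold changes were 0.30 for HES1, 0.03 for HES5, 0.375 for HEYL, -0.24 for HEY1, -0.30 for NRARP and -0.77 for HEY2. For DLK1, NOTCH1, NOTCH3 and HES4 the KO libraries lay below the WT libraries. When single libraries were left out, the calls of DLK1 and HES4 were lost only without WT 3 (edgeR adjusted p = 0.0528 and 0.0616). Among these 6 fits NOTCH1 was called only without WT 2 and NOTCH3 only without WT 1. The NOTCH1 call was also lost with library size scaling (edgeR adjusted p = 0.0608) and without the robust option (edgeR adjusted p = 0.0558). DESeq2 called the same 4 genes and 2 more ligand-like genes, MFAP2 (-0.51, adjusted p = 0.023) and THBS2 (-0.92, adjusted p = 0.0345).

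No gene passed in the other lists, which were 4 genes of ligand ubiquitination, 8 other glycosyltransferases of EGF repeats, 8 of receptor cleavage, 5 nuclear effectors, 3 antagonists and 9 tested proneural genes. The 4 ubiquitination genes, whose enzymes mark ligands for the endocytosis that activates Notch, had log2 fold changes between -0.47 and -0.07. The summed level of the 5 neural progenitor markers was 3043 to 3892 CPM in KO and 3879 to 4361 CPM in WT, and none of the 5 passed the test. Most of that sum was VIM (2389 CPM in KO and 2938 CPM in WT on average). VIM, NES and SOX2 had log2 fold changes of -0.30, -0.26 and -0.14, against 0.42 for PAX6 and 0.20 for FABP7. The 4 telencephalon markers summed to 402 to 732 CPM in KO and 327 to 762 CPM in WT. The 4 pluripotency markers summed to 1.84 to 4.47 CPM in KO and 4.60 to 10.7 CPM in WT. Nearly all of that sum was DPPA4 (3.56 CPM in KO and 7.32 CPM in WT on average, edgeR adjusted p = 0.172), while POU5F1, NANOG and ZFP42 held at most 1 count in any library. Of the telencephalon markers SIX3 rose in KO (31.2 CPM in KO and 7.66 CPM in WT on average; log2 fold change 2.03 ± 0.19, edgeR adjusted p = 0.000309), and of the 6 neuron markers TUBB3 fell (-0.52, edgeR adjusted p = 0.0316). TUBB3 was the lowest of them in CPM, and the other neuron markers did not pass, with log2 fold changes between -0.18 (STMN2) and 0.51 (ELAVL4).

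In mouse, none of the 10 genes passed the test in N2NL against EV organoids; over all genes 0.012% passed. An unadjusted p under 0.05 was reached by 2 of the 10, Dll1 and Rfng, against 7.45% of all genes. Mouse levels were compared within a gene only. Dll1 had 93.8, 102 and 90.7 CPM in N2NL, against 75.3, 82.0 and 91.8 CPM in EV (log2 fold change 0.20 ± 0.08, edgeR adjusted p = 0.643). EV 3 lay above N2NL 3, so the groups overlapped. Dll3 had 10.1, 13.1 and 12.4 CPM in N2NL, against 9.39, 12.4 and 14.9 CPM in EV, where EV held both the lowest and the highest value (-0.05 ± 0.17, edgeR adjusted p = 0.974). Dll4 had 24.6, 24.4 and 19.1 CPM in N2NL, against 25.1, 23.2 and 26.5 CPM in EV (-0.14 ± 0.11, edgeR adjusted p = 0.859). Of the 6 mouse endothelial markers, Cdh5 was the highest, at 207 ± 59.3 CPM in N2NL and 248 ± 58.3 in EV (SD, n = 3 each). That is far from the few counts of CDH5 in the human libraries. Tek and Erg averaged only 2.74 and 2.69 CPM in N2NL. The log2 fold changes were -0.26 for Cdh5, -0.10 for Kdr, -0.02 for Pecam1, -0.002 for Erg, 0.001 for Tek and 0.33 for Tie1. None of the 6 passed the test, and the part of endothelial cells in the Dll4 level was not tested.

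Jag2 was the mouse gene whose groups did not overlap, a state found in 12.7% of all genes (7.39% with N2NL above and 5.31% with N2NL below). It had 30.2, 30.7 and 30.6 CPM in N2NL, against 27.0, 26.3 and 27.9 CPM in EV, so every N2NL library was higher. The log2 fold change was 0.17 ± 0.09 (edgeR adjusted p = 0.696), with an interval of -0.01 to 0.35. Jag1 varied least within EV and gave a log2 fold change of -0.01 ± 0.07, with 77.6, 82.9 and 75.1 CPM in N2NL and 79.3, 78.0 and 80.2 CPM in EV. Its interval was -0.17 to 0.14. Dner had 9.92, 12.1 and 12.1 CPM in N2NL, against 9.71, 10.3 and 11.7 CPM in EV, which overlapped (0.10 ± 0.14, edgeR adjusted p = 0.912).

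Of the fringe genes, Rfng had 44.1, 45.2 and 39.3 CPM in N2NL, against 37.4, 33.3 and 39.5 CPM in EV (0.22 ± 0.09, edgeR adjusted p = 0.628). N2NL 3 lay just under EV 3. Lfng had 74.3, 80.8 and 78.8 CPM in N2NL, against 62.4, 72.8 and 85.4 CPM in EV, with both ends of the range in EV (0.09 ± 0.10, edgeR adjusted p = 0.904). Mfng had 24.96, 27.16 and 23.96 CPM in N2NL, against 21.6, 28.7 and 26.7 CPM in EV (-0.02 ± 0.11, edgeR adjusted p = 0.990). Pofut1 had 70.9, 74.6 and 71.1 CPM in N2NL, against 56.6, 61.8 and 74.5 CPM in EV (0.17 ± 0.10, edgeR adjusted p = 0.744). EV 1 was the lowest of its group for Dll1, Dll3, Lfng, Mfng, Dner and Pofut1. EV 1 also had the highest summed level of the genes listed as surface epithelium markers, with 1262, 741 and 621 CPM in N2NL 1 to 3 and 1335, 920 and 859 CPM in EV 1 to 3. Most of that sum was Krt8 and Krt18 (587 and 403 CPM in EV on average). Krt5, Krt14 and Trp63 held at most 4, 9 and 12 counts in any mouse library, so the sum says little about surface epithelium itself. The endothelial sum of EV 1 was also the highest, at 391 CPM. So was its share of reads aligned to several places, 33.67% against 26.64% to 30.07% in the other 5 libraries. The part of these in the EV 1 values was not tested.

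**Figure D4:**
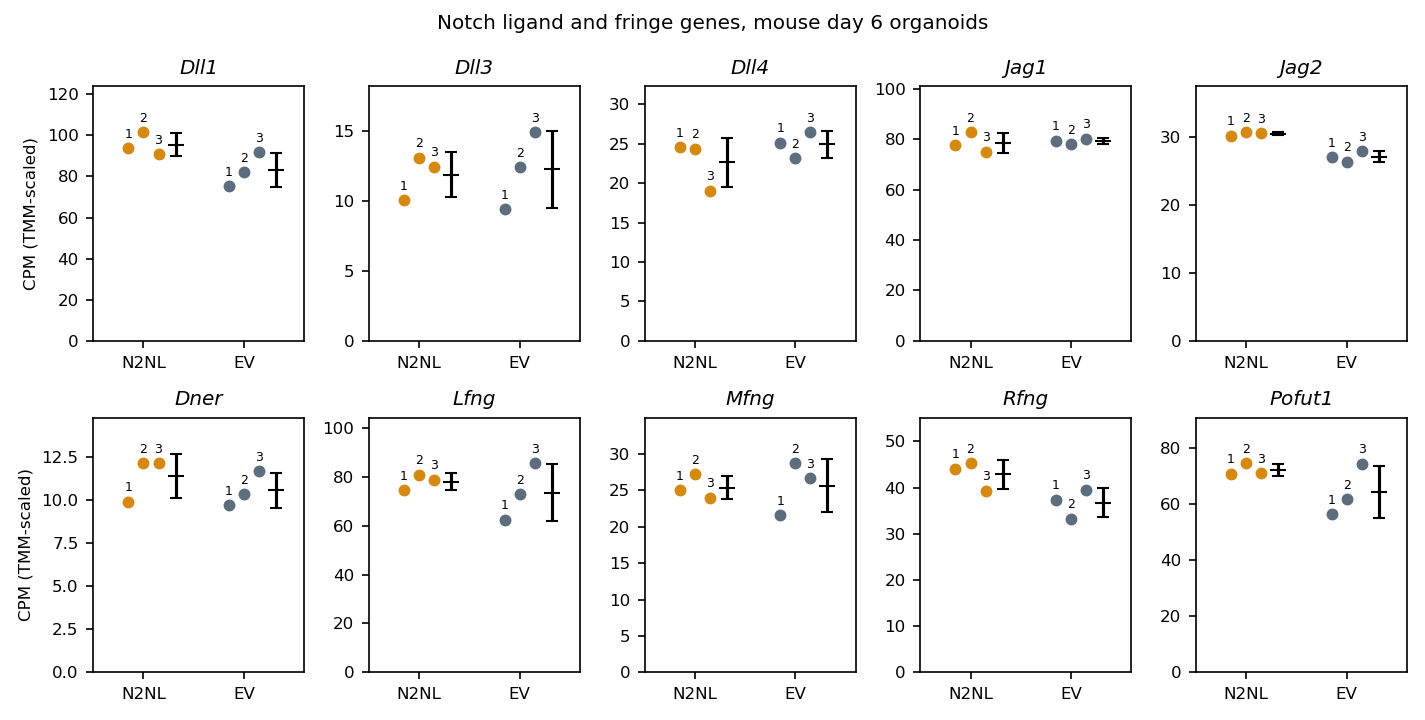
Level (CPM) of the 10 genes in mouse organoids, with numbered points for the 3 N2NL and 3 EV libraries and a bar for mean ± SD. Only Jag2 has no overlap between the groups, and no gene passed the test.

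The 95% intervals of the log2 fold changes were narrower in mouse than in human for all 10 genes. The human DLL3 interval spanned -0.85 to 1.00, against -0.41 to 0.31 for Dll3. That of JAG1 spanned -0.58 to 0.92, against -0.17 to 0.14 for Jag1.

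**Figure D5:**
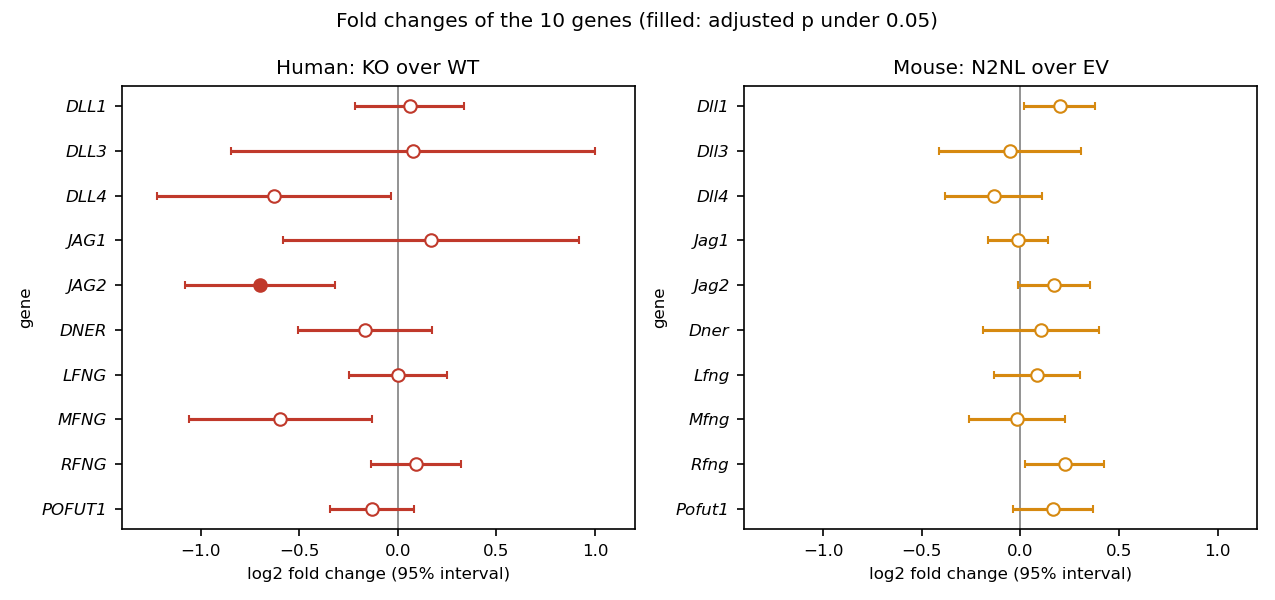
Log2 fold change with its 95% interval for each gene, KO over WT in human (left) and N2NL over EV in mouse (right). The filled point is JAG2 at -0.70, the 1 gene with an adjusted p under 0.05, and mouse Jag2 lies at 0.17.

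The other mouse pathway genes, 57 listed and 56 tested, held 0 that passed the test, with a median log2 fold change of 0.03 against -0.006 for all genes; 8 had an unadjusted p under 0.05, against 7.45% of all genes. Notch2, the receptor gene from which NOTCH2NL derives, had 140, 154 and 150 CPM in N2NL, against 121, 120 and 121 CPM in EV (0.29 ± 0.07, edgeR adjusted p = 0.241). The other receptor genes also had log2 fold changes above 0, with overlapping groups. They were 0.28 ± 0.08 for Notch3 (edgeR adjusted p = 0.456), 0.23 ± 0.10 for Notch1 (edgeR adjusted p = 0.645) and 0.19 ± 0.18 for Notch4 (edgeR adjusted p = 0.872). Whether reads of the expressed human sequence were counted to Notch2 was not tested. Dlk1 had 41.1, 37.9 and 35.2 CPM in N2NL, against 28.4, 26.3 and 33.4 CPM in EV (0.37 ± 0.10, edgeR adjusted p = 0.396). Every N2NL library was above every EV library for 3 of the 56 tested genes (Notch2, Dlk1 and Spen) and below for 2 (Hey2 and Ncstn). Over all genes tested, 7.39% were above and 5.31% below. Of the 6 mouse Notch targets, all tested, Hey2 had the lowest log2 fold change and the only unadjusted p under 0.05. It had 2.09, 2.56 and 2.49 CPM in N2NL, against 3.85, 3.27 and 3.67 CPM in EV, so every N2NL library was below every EV library (-0.60 ± 0.20, edgeR adjusted p = 0.532). Hes1 had the highest (0.13 ± 0.09), and Hes5, Hey1, Heyl and Nrarp lay between -0.05 and 0.05. The summed level of the 6 neuron markers was 603 to 671 CPM in N2NL and 696 to 831 CPM in EV, without overlap, and none of the 6 passed the test. The 4 telencephalon markers summed to 298 to 305 CPM in N2NL and 216 to 237 CPM in EV, and the 4 pluripotency markers to 303 to 368 CPM in N2NL and 291 to 311 CPM in EV. None of these 8 passed the test, and the part of cell makeup in the mouse values was not tested.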

How the data were processed

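Polyadenylated RNA was made into strand-specific Ion libraries, per the labels' protocols. The authors deposited raw read counts per Ensembl gene for each species and tables of their own comparison. The deposited comparison tables give a normalized value per library (used as a score) with a p-value and its adjusted form, and the human one also a log2 fold change. DESeq2 2.11.39, HTSeq 0.6.1p1, STAR 2.4.0, Trimmomatic 0.36 and Bowtie2 2.3.3.1 are named in the submitters' processing notes without roles, as are GRCh38 and GRCm38. In both human groups the authors' normalized columns of replicates 1 and 3 are exchanged against the raw columns, and the raw numbering was used. Summary lines in the mouse counts (26.64% to 33.67% aligned to several places, 5.77% to 6.5% outside genes) were left out.

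Each species was tested over all genes with edgeR 4.0.16 in R 4.3.3 (filterByExpr, TMM factors, robust quasi-likelihood F test, group as the only term, Benjamini-Hochberg adjustment). The ± of a log2 fold change is an approximate SE, its size divided by the square root of F, and 95% intervals use the test's degrees of freedom. CPM carry TMM factors. Human symbols came from the authors' deposited table, and 103 of 104 listed genes were matched in mouse by description (HES4 was not). Exon lengths came from GENCODE 29. No mouse annotation was used, so mouse levels were not scaled by length. Exact tests of 3 against 3 libraries were not used. A floor of 3 counts covers counting error only. Alternatives were DESeq2 1.42.0, other scalings, no filter, no robust option, a replicate block and leaving out libraries. All members and every pathway gene that passed were named, together with the 3 genes most like DLL1 and DLL3. The members, lists and rules were chosen with earlier results of these data known. Genes and values named beyond that rule were chosen after they were seen.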

Additional observations from a re-analysis of the deposited data

How the results depend on the processing

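JAG2 was lower in KO under every alternative tried, with log2 fold changes of -0.86 to -0.56. Of the 10 human genes, 0 were called with library size scaling, 2 with no filter on low counts, and 0 to 1 when a library was left out. Calls over all human genes numbered 2155 with no filter and 224 to 1440 when a library was left out (251, 506 and 526 without KO 1, 2 and 3; 1440, 499 and 224 without WT 1, 2 and 3). Pathway genes called in human numbered 9 with no filter and 0 to 4 when a library was left out, with 0 without WT 3 and 2 without KO 1. Without KO 2 and WT 1, chosen after seeing the data, 1 of the 10 genes (JAG2, -0.86, edgeR adjusted p = 0.0268) and 6 pathway genes were called.

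In mouse, 0 of the 10 genes were called under each alternative run. Calls over all mouse genes numbered 30 with DESeq2, 117 with no filter, 1 without the robust option, 21 with the replicate block and 0 to 17 when a library was left out (17 without EV 1, 16 without N2NL 1, 1 without EV 2, and 0 without EV 3, N2NL 2 or N2NL 3). Pathway genes called in mouse numbered 2 with no filter (Dlk1 and Notch2), 1 with the replicate block (Atoh1, edgeR adjusted p = 0.0441) and 0 to 1 when a library was left out (Atoh1 without EV 1).

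Uncalled values near 0 changed sign when a library was left out. The ranges were -0.018 to 0.188 for DLL1, -0.218 to 0.281 for DLL3, -0.113 to 0.405 for JAG1 and -0.074 to 0.101 for LFNG. In mouse they were -0.208 to 0.121 for Dll3, -0.053 to 0.019 for Jag1, -0.020 to 0.212 for Lfng and -0.125 to 0.071 for Mfng. LFNG was -0.015 without KO 1, -0.074 without KO 3, -0.020 without WT 1 and -0.007 with the replicate block. Without KO 3 and without WT 1, DLL1 was -0.018 and -0.017, DLL3 -0.218 and -0.181, and JAG1 -0.113 and -0.004. Lfng was -0.020 without EV 1. Mfng was 0.071 without EV 2, 0.017 without EV 3 and 0.021 without N2NL 3. Dll3 was 0.121 without EV 3 and 0.053 without N2NL 1, and Jag1 0.003 without EV 3 and 0.019 without N2NL 3. The cause of these changes was not tested.

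The replicate numbers were not treated as pairs: deviations of same-numbered libraries correlated at -0.141 to 0.241 in human and -0.012 to 0.185 in mouse, against -0.377 to 0.32 and -0.151 to 0.143 for other pairs, and not every library correlated best with its own number. With the block, 899 human genes were called, JAG2 stayed called (adjusted p = 0.0452), and NOTCH3 was not (0.0518). DLL4 in human, with 26 to 55 counts per library, had the fewest counts of the 10 genes.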

Other observations

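The genes whose profile over the 6 libraries of a species lay closest to that of DLL1 or DLL3 were looked up as a description. Closeness was the root mean square difference of log2(CPM + 0.5) after centring, among 10691 human and 10537 mouse genes with a mean of 10 CPM or more. For DLL1 they were KDM7A (0.0272), a histone demethylase gene, ACVR2B (0.0345), an activin receptor gene, and RNGTT (0.0381), which encodes the mRNA capping enzyme. For DLL3 they were LRP2 (0.119), CASZ1 (0.125) and PCDH8 (0.127), at larger distances. For mouse Dll1 they were the genes described as WD repeat domain 34 (0.0167), D site albumin promoter binding protein (0.0169) and fuzzy planar cell polarity protein (0.018). For mouse Dll3 they were those described as phosphodiesterase 2A (0.0334), carbohydrate sulfotransferase 15 (0.0446) and cadherin EGF LAG seven-pass G-type receptor 3 (0.0448). Each likeness rests on 6 libraries that share their depth and scaling, and describes these libraries only.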
